A study of Homo sapiens with 4 samples.

Results

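The chromosome 19 microRNA cluster, C19MC, was examined in small RNA libraries of 2 human colorectal adenocarcinoma cell lines, HT29 and HCT15, each grown as parental cells and as spheres. Its members were taken by name: every listed row, of either arm and any copy, with the stem miR-498, miR-512, miR-515 to miR-527, miR-1283 or miR-1323. This gave 59 rows of 2080 names, of which 59 were listed for HT29 and 58 for HCT15, where miR-517-5p was not a listed name. HT29 parental cells were grown in DMEM and HCT15 parental cells in RPMI, both with 10% fetal bovine serum. Spheres of both lines were grown in DMEM-F12 with N2 Plus supplement, bFGF at 10 ng/ml and EGF at 10 ng/ml, a medium meant to enrich spheroids, which the submitters describe as cancer stem cells. All cultures received penicillin and streptomycin. Each line and culture had 1 library, so no difference between cultures of a line has a replicate check, and the intervals below are 95% intervals that cover counting error only.

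C19MC is a primate-specific, imprinted array of related hairpins on the long arm of chromosome 19, transcribed from the paternal allele. It is known for its abundance in placental trophoblast, and it is also expressed in human embryonic stem cells and in some embryonal tumours, while most adult tissues hold little of it. Its hairpins arose by repeated duplication, so several mature products are identical or nearly so. Many of the 3p products carry the AAGUGC core shared with the miR-302, miR-372 and miR-17 families, which are known for promoting proliferation and the pluripotent state. The next miRNA genes downstream are MIR371A, MIR372 and MIR373, a group known from embryonic stem cells.

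The sequences of the most abundant members show their unlike seeds and, in most of them, a like 3′ end. RefSeq (GRCh38.p14) held a mature sequence for 56 of the 59 rows, and these were 47 distinct sequences. Those below belong to the members that reached 10 CPM (reads of a row per 1000000 listed miRNA reads of the library) in any library, followed by the neighbouring cluster for comparison. They are written 5′ to 3′ with the seed, bases 2 to 8, in capitals.
miR-516a-5p: uUCUCGAGgaaagaagcacuuuc
miR-1283: uCUACAAAggaaagcgcuuucu
miR-512-3p: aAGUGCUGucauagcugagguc
miR-516b-5p: aUCUGGAGguaagaagcacuuu
miR-515-5p: uUCUCCAAaagaaagcacuuucug
miR-371a-5p: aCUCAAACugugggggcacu
miR-372-3p: aAAGUGCUgcgacauuugagcgu
miR-373-3p: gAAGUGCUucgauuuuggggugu
The sixth member at that level was miR-522-3p. miR-516a-5p, miR-1283, miR-516b-5p and miR-515-5p share no seed with each other, but each of them holds GCACUUU or GCGCUUU near its 3′ end. One of these 2 motifs, searched on the strand given, occurred in 13 of the 47 member sequences and in 10 of 2304 other human mature sequences (0.434%). The members just named are among the 13, and the array arose by duplication, so this contrast is a description only. AAGUGC starting at base 1, 2, 3 or 4 occurred in 15 of the 47 and in 16 of the 2304 others (0.694%). Among the abundant members with a RefSeq sequence, only miR-512-3p carries it.

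The annotated loci of the 56 rows with a RefSeq sequence number 44, all on the plus strand, and span chr19:53666679-53762430 (GRCh38.p14), a stretch of 95.8 kb. miR-527, which had no sequence there, added no locus to this number. In GENCODE 29 a single locus lies in an annotated gene of its strand other than a miRNA gene: MIR519A2 (chromosome 19, 53762344 to 53762430), in an exon of the long noncoding RNA AC011453.1. MIR516A1 (chromosome 19, 53756741 to 53756830) and MIR516A2 (chromosome 19, 53761133 to 53761222) both encode miR-516a-5p, and MIR1283-2 (chromosome 19, 53758232 to 53758318) lies between them. MIR1283-1 (chromosome 19, 53688481 to 53688567) lies apart from them, 21.8 kb from the start of the first locus. MIR371A to MIR373 begin 25.2 kb beyond the last C19MC locus, at 53787675.

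The libraries held 5806540 and 12794274 miRNA reads for HT29 parental cells and spheres, and about 3183656 and 2317065 for those of HCT15, whose deposited values are RPKM and were converted to reads. A count of 0 thus allows up to 3 reads, which is 0.517, 0.234, 0.942 and 1.29 CPM in that order. All 6 markers of colorectal epithelium (miR-192, miR-194, miR-215, miR-200c, miR-141 and miR-375) were listed above 0 in every library, with summed levels of 141900 to 214179 CPM in HT29 and 14840 to 17224 CPM in HCT15. Of 5 embryonic stem cell markers, the 3p arms of the miR-302/367 cluster, only miR-302b-3p was above 0, with 1 read in HT29 spheres. The 4 blood markers summed to 375 to 402 CPM in HT29 and 1.73 to 2.83 CPM in HCT15, and the 4 stromal markers to 6.72 to 20.5 CPM. The HT29 blood sums were mostly miR-142-3p, which alone gave 381 CPM (parental) and 367 CPM (spheres). miR-150-5p added 19.1 and 7.74 CPM, miR-451a added 1.72 and 0.938 CPM, and miR-223-3p had 0 reads in every library. Whether these sums stem from blood or stromal cells, and what they have to do with the C19MC levels, was not tested. The files of the 2 lines hold different units and were normalized separately, so levels are set side by side without a test between lines.

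The cluster was detected at a low level in HCT15 and from a few reads in HT29. The summed level of all C19MC rows was 173 CPM in HCT15 parental cells (interval 159 to 188) and 259 in HCT15 spheres (238 to 280). In HT29 it was 2.58 CPM in parental cells (1.45 to 4.26) and 6.10 in spheres (4.82 to 7.61). In reads, the HT29 sums were 15 and 78, and those of HCT15 were 551 and 599. In both lines the sphere library held the higher level, and the intervals of the 2 libraries of a line did not overlap. With only the largest of several rows of identical sequence counted, HT29 spheres held 5.24 CPM (4.06 to 6.65), an interval that does overlap that of HT29 parental cells, and the HCT15 libraries held 169 and 254. Fewer expressing cells and less RNA per cell cannot be told apart in these bulk samples.

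**Figure D1:**
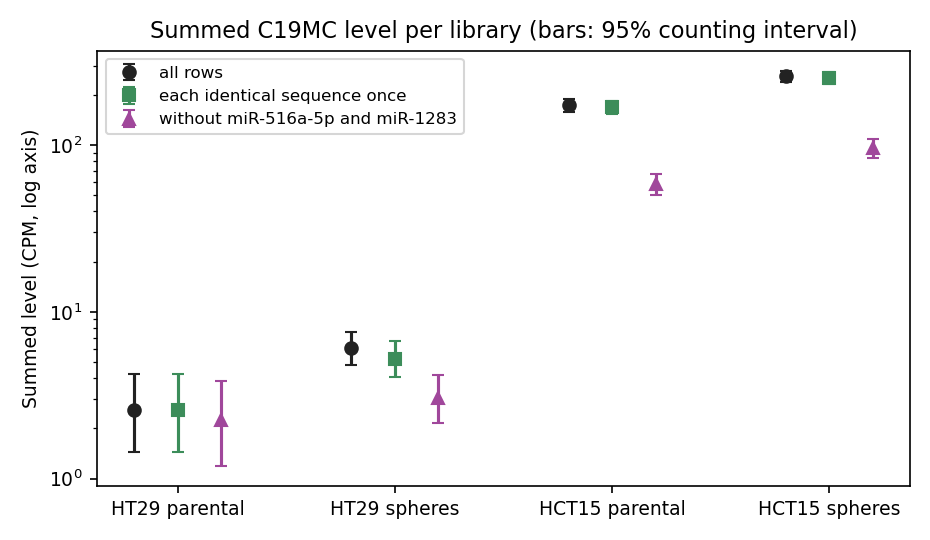
Summed C19MC level in CPM on a log axis for each of the 4 libraries, over all rows (circles), with the largest row of each identical sequence (squares) and without miR-516a-5p and miR-1283 (triangles). Bars are 95% exact binomial intervals. Over all rows the HCT15 libraries lie at 173 and 259 CPM and the HT29 libraries at 2.58 and 6.10 CPM.

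Detection followed the same order between lines. In HT29 parental cells 10 of 59 rows were above 0, and in HT29 spheres 25 of 59, while over all names of those files 52.3% and 56.7% were above 0. In HCT15 parental cells 47 of 58 rows were above 0 (81.0%), against 47.8% of all names, and in HCT15 spheres 31 of 58 (53.4%), against 28.3%. With a minimum of 3 reads the counts were 1, 6, 12 and 10 rows in HT29 parental cells, HT29 spheres, HCT15 parental cells and HCT15 spheres, against 41.6%, 45.7%, 32.9% and 23.8% of all names. C19MC rows at 3 reads or more were thus a smaller share than all names in each library (1.69%, 10.2%, 20.7% and 17.2%). At 1 CPM or more they were 0, 2, 11 and 10 rows, against 35.8%, 32.6%, 31.1% and 24.2% of all names. Most HCT15 rows above 0 held very few reads: 35 of the 47 rows in parental cells held under 3 reads, and 13 held under 1 read, a divided value. Rows read as a single read were rare in HCT15 spheres, where the commonest low value was taken as 2 reads. On that scale, which the deposited values do not settle, over all names 126 rows stood at 1 read in HCT15 parental cells and 4 in spheres, and all 6 C19MC rows at 1 read in parental cells were at 0 in spheres. The part of this in the lower count of rows above 0 was not tested. In all, 10 of the 59 rows were at 0 in every library that listed them, and 7 were above 0 in all 4.

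miR-516a-5p and miR-1283 supplied most of the cluster's reads in HCT15. miR-516a-5p, the 5p arm product of MIR516A1 and MIR516A2, stood at 0.344 CPM in HT29 parental cells, 1.80 in HT29 spheres, 64.1 in HCT15 parental cells and 99.3 in HCT15 spheres. It ranked 201 of 2041 names in HCT15 parental cells and 161 in spheres. miR-1283 stood at 0 reads in HT29 parental cells, 1.25 CPM in HT29 spheres, 50.6 in HCT15 parental cells and 63.4 in HCT15 spheres. In each line both miRNAs were higher in the sphere library. Together they made up 66.2% of C19MC reads in HCT15 parental cells (interval 62.1% to 70.2%), 62.9% in HCT15 spheres (58.9% to 66.8%) and 39 of 78 reads in HT29 spheres (38.5% to 61.5%). In HT29 parental cells they made up 2 of 15 reads (13.3%, 1.66% to 40.5%).

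**Figure D2:**
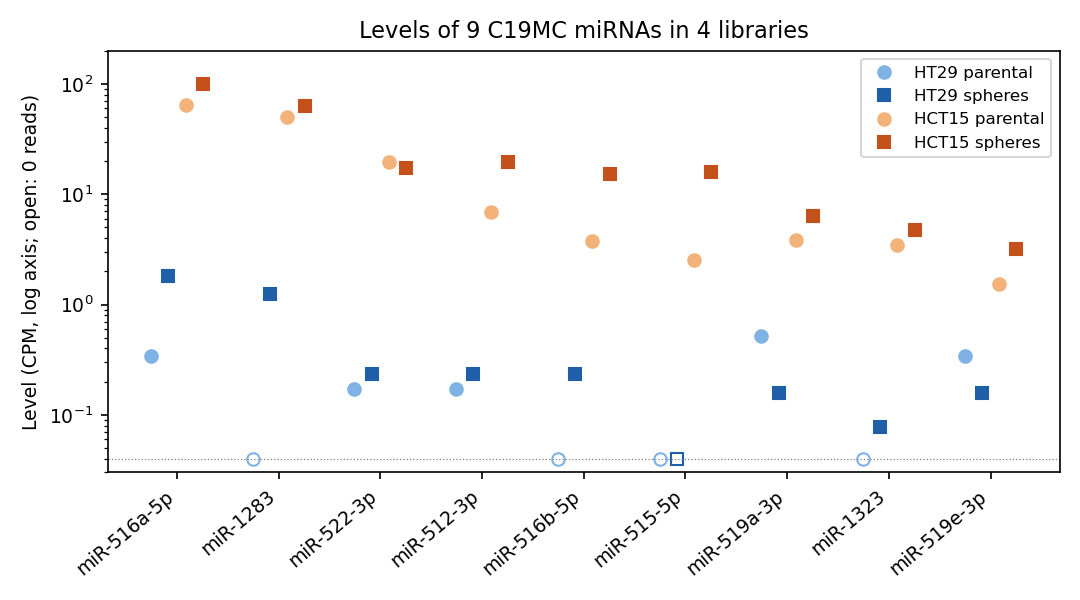
Level in CPM, on a log axis, of the 9 C19MC miRNAs with 10 reads or more over the HCT15 libraries, in each of the 4 libraries, with open symbols at the bottom for 0 reads. The HCT15 values of each miRNA lie above its HT29 values, and miR-516a-5p and miR-1283 are the highest of the 9 in both HCT15 libraries. The 9 were chosen by their HCT15 reads, so the order of the lines was in part set by that minimum and is no finding.

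A second tier was present in HCT15 and nearly absent from HT29. miR-512-3p, which has been reported to repress the apoptosis inhibitor CFLAR, had 22 reads in HCT15 parental cells and 45 in spheres (6.91 and 19.4 CPM), with 1 and 3 reads in those of HT29. miR-515-5p, which has been reported to restrain trophoblast differentiation, stood at 2.51 and 15.97 CPM in HCT15 and had 0 reads in both HT29 libraries. miR-516b-5p stood at 3.77 and 15.1 CPM in HCT15, with 0 and 3 reads in HT29. Each of these 3 reached 10 CPM only in HCT15 spheres, so a higher level there than in the other libraries was set by that minimum and is no finding. miR-522-3p passed the minimum in both HCT15 libraries: its 62 and 40 HCT15 reads gave 19.5 CPM in parental cells against 17.3 in spheres. Its HT29 counts were 1 and 3 reads.

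The remaining 53 rows were scarce. The highest of them in HCT15 was miR-519a-3p, of the miR-519 family reported to target the RNA-binding protein HuR, with levels of 3.82 and 6.33 CPM in the parental and sphere libraries. miR-1323 had 11 reads in each HCT15 library (3.46 and 4.75 CPM), and miR-519e-3p stood at 1.54 and 3.16 CPM. In HT29 no row of these 53 exceeded 3 reads. The median of the 53 was 0.314 CPM, or 1 read, in HCT15 parental cells and 0 in the other libraries.

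Ratios of spheres to parental cells were computed within a line after TMM scaling, which corrects for a few abundant miRNAs taking up much of a library, with a prior count of 2. The sum of all C19MC rows had a log2 ratio of 0.92 in HCT15 (interval 0.76 to 1.10, 1.90-fold) and 1.69 in HT29 (0.98 to 2.70, 3.22-fold). The sums were higher in spheres under each of 5 scalings (TMM, total reads, totals without the 10 most abundant miRNAs, DESeq2 size factors and the upper quartile), at 0.58 to 1.16 in HCT15 and 1.17 to 1.93 in HT29. The HT29 value rests on 15 parental reads and largely on miR-516a-5p and miR-1283, without which it was 0.92 (0.06 to 2.03), and 0.41 (-0.49 to 1.47) when scaled to total reads. The 39 HT29 sphere reads behind these 2 values include 12 from 6 rows of 1 sequence with 2 reads each. The intervals treat these as separate reads and are thus too narrow, so the lower limit of 0.06 is not read as a difference. The full HT29 sum includes the same 12 reads, so its interval is too narrow as well. With each identical sequence counted once, the full HT29 sum had a log2 ratio of 1.48 (0.75 to 2.49). Scaled to total reads, that value was 0.96 (0.20 to 1.93). The HCT15 sum without miR-516a-5p and miR-1283 was 1.05 (0.78 to 1.35).

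In HCT15, 9 members had 10 reads or more over the 2 libraries, and the log2 ratio of each was above 0 (9 of 9, where 44.3% of all 503 miRNAs at that depth were above 0). Of these, miR-515-5p and miR-519e-3p reached 10 reads only with the sphere library, so the count of 9 is a description and no support for a shared direction. The highest ratio was that of miR-515-5p, from 8 and 37 reads (2.67, interval 1.89 to 4.33). miR-516b-5p followed with 12 and 35 reads (2.13, 1.37 to 3.43), and miR-512-3p with 22 and 45 reads (1.73, 1.07 to 2.65). The lower limits of these 3 lay above a 2-fold difference, and 4 of the 9 ratios were at least 2-fold, where 8.55% of the 503 miRNAs were. Those 4 include miR-515-5p, which passed through the sphere library, and miR-519e-3p, which passed only with both libraries (4.92 and 7.33 reads). Nothing is therefore read from the count or from the lower limit of miR-515-5p. All these intervals also rest on the HCT15 sphere read scale, which is not settled. The 2 most abundant members had lower ratios: miR-516a-5p had 0.97 (0.70 to 1.26) from 204 and 230 reads, and miR-1283 had 0.67 (0.34 to 1.008) from 161 and 147 reads. miR-522-3p had a log2 ratio of 0.17 (-0.44 to 0.77), and its sign changed with the scaling (-0.17 to 0.39). For miR-519a-3p (0.94), miR-1323 (0.69) and miR-519e-3p (1.04) the intervals included 0, so no difference was detectable at this depth. At a mean of 10 CPM or more over the HCT15 libraries, 4 members passed and 1 of them, miR-512-3p, was at least 2-fold higher, where 9.31% of all 333 miRNAs were. It passed through its level in spheres (6.91 CPM in parental cells, 19.4 in spheres), so this count is a description only. None of the 4 (0) was at least 2-fold lower, where 6.01% were. The median log2 ratio of the 4 was 0.82, and that of the 333 was 0.05. miR-516b-5p and miR-515-5p lay just under that minimum, with means of 9.44 and 9.24 CPM, and miR-512-3p just above it, with 13.2.

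**Figure D3:**
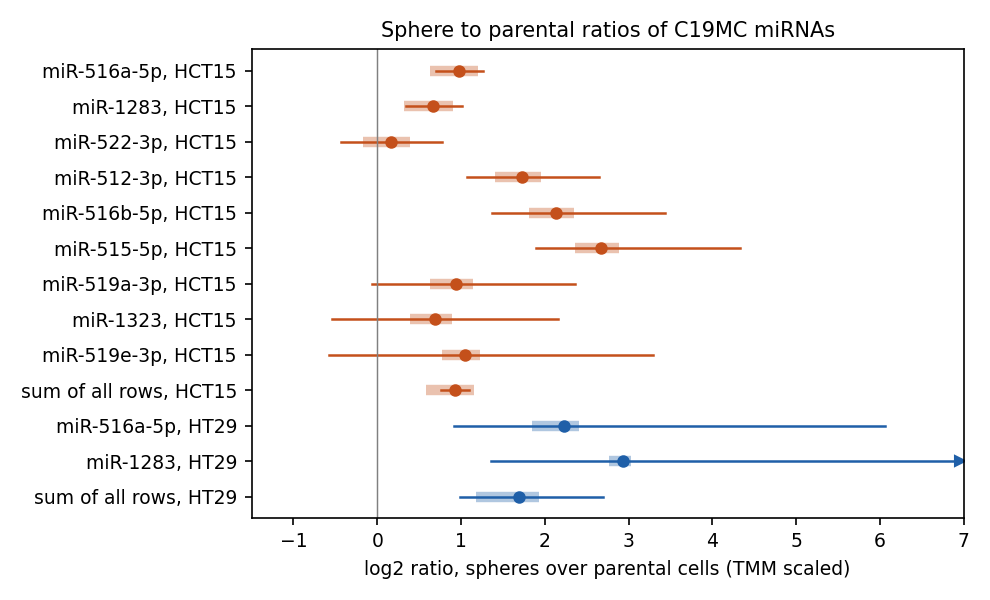
Log2 ratio of spheres over parental cells, TMM scaled, for the C19MC miRNAs with 10 reads or more in a line and for the sum of all rows (HCT15 orange, HT29 blue). Thin lines are 95% counting intervals, an arrow marks an interval without an upper limit, and thick pale bars span 5 scalings. Of the HCT15 miRNAs, the range over scalings crosses 0 only for miR-522-3p.

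In HT29 only miR-516a-5p and miR-1283 reached 10 reads, both through the sphere library alone. miR-516a-5p had 2 and 23 reads in parental cells and spheres, a log2 ratio of 2.23 (0.92 to 6.07). miR-1283 had 0 and 16 reads, with a lower limit of 1.36 for the log2 ratio after TMM scaling and no upper limit. Of all 754 miRNAs with 10 reads or more over the HT29 libraries, 15.6% were at least 2-fold higher in spheres. Because miR-516a-5p and miR-1283 passed through their sphere reads, a ratio above 0 was largely set by that minimum. Their ratios and limits are a description only. No C19MC member had a mean of 10 CPM in HT29.

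Across both lines, limma with the line as a block tested the 377 miRNAs that reached 10 CPM in 2 or more libraries, on log2 of the scaled CPM plus 1. Of the cluster, miR-516a-5p, miR-1283 and miR-522-3p passed that filter, each through the HCT15 libraries alone. miR-516a-5p had a log2 fold change of 1.12 (SE 0.35) and miR-1283 of 0.98 (SE 0.37), with the same limma adjusted p of 0.727, and miR-522-3p had 0.16 (SE 0.31) with a limma adjusted p of 0.899. None of the 3 was called, nor was any miRNA (0 of 377, 0%), and 21 had an unadjusted p under 0.05. edgeR's quasi-likelihood test called 0 as well, with an unadjusted p under 0.05 for 17, while DESeq2 called 5 and limma-voom 3, none of them in C19MC. The lines are the replicates in this fit, which leaves 1 residual degree of freedom. The labels name no repeat culture of either line.

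The arms of the hairpins were unequally represented. In HCT15 the 25 rows from 5p arms held 76.4% of C19MC reads in parental cells (72.6% to 79.9%) and 80.0% in spheres (76.5% to 83.1%), and in HT29 spheres 71.8% (60.5% to 81.4%). In HT29 parental cells 13 of 15 reads were from 3p arms, so 5p arms held 13.3% (1.66% to 40.5%), an interval that does not overlap those of the other 3 libraries. That interval takes the 15 as separate reads. Some of them lie in rows of near-identical sequence, such as miR-520b and miR-520c-3p with 1 read each. Whether a read was counted in more than 1 such row is not known, so the share is a description only. Between the HT29 libraries the 5p rows went from 2 to 56 reads (log2 ratio 3.43, 2.30 to 7.30) and the 3p rows from 13 to 21 reads (0.09, -0.96 to 1.22). The 3p value changed sign with the scaling, from -0.40 to 0.32. In HCT15 both arms had ratios above 0, at 0.99 (0.80 to 1.19) for 5p rows and 0.69 (0.33 to 1.07) for 3p rows. With each identical sequence counted once, 5p arms held 46 of 67 reads in HT29 spheres (68.7%).

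**Figure D4:**
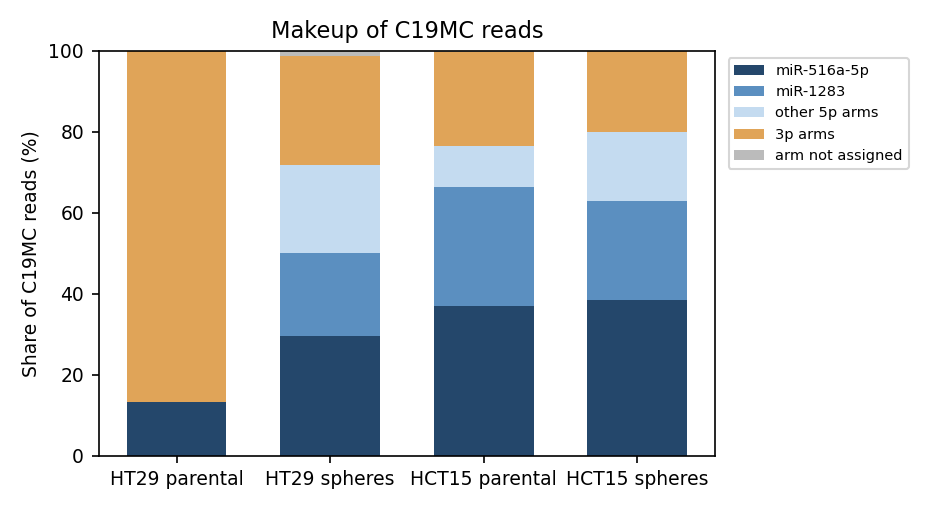
Share of C19MC reads in percent for miR-516a-5p, miR-1283, the other 5p arms, the 3p arms and 1 row of unassigned arm (miR-527), as stacked bars for the 4 libraries. The 3p arms make up 86.7% in HT29 parental cells, from 15 reads in all, and 19.9% to 26.9% in the other 3 libraries.

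Seeds, which decide most of a miRNA's target choice, were unequally represented too. The seeds UCUCGAG of miR-516a-5p and CUACAAA of miR-1283 are each found in 1 row. The largest seed group, UCUAGAG, holds 10 rows of 3 sequences, all 5p products, and summed to 16.3 reads in HCT15 parental cells and 12.0 in spheres. AAGUGCU, the seed of miR-372-3p and miR-373-3p, is shared by miR-520a-3p, miR-520b, miR-520c-3p, miR-520d-3p and miR-520e, which summed to 7.07 and 3.50 reads in HCT15 and to 2 reads in each HT29 library. AAGUGCA, the seed of miR-519a-3p, miR-519b-3p and miR-519c-3p, summed to 14.4 and 16.7 reads in HCT15. AAAGUGC, the seed of miR-17-5p, belongs to miR-519d and miR-526b-3p, which summed to 1.17 and 0 reads. All rows with AAGUGC at base 1 to 4 made up 9.36% of C19MC reads in HCT15 parental cells and 12.7% in spheres, against 11 of 15 reads in HT29 parental cells and 13 of 78 in HT29 spheres. Whether an HT29 read was counted in several of these alike rows is not known.

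Other miRNAs carried the seeds AAGUGCU and AAAGUGC at higher levels in these cells. miR-372 and miR-373-3p stood at 27100.5 and 34502 CPM in HCT15 parental cells and at 20470 and 23392 in HCT15 spheres. In HT29 they stood at 22.7 and 14.5 CPM in parental cells and 39.4 and 62.3 in spheres. The 7 rows of the miR-371 to miR-373 group summed to 129395 and 83338 CPM in HCT15 parental cells and spheres, where C19MC summed to 173 and 259. In HCT15 the log2 ratio of miR-371a-5p was -0.42 (-0.77 to -0.19 over the scalings) and that of the C19MC sum 0.92, a difference with no replicate check. miR-373-3p had -0.21 and miR-372 -0.06, and both changed sign with the scaling (-0.56 to 0.02 and -0.40 to 0.18). In HT29 miR-371a-5p had a ratio of 2.01 (1.75 to 2.32), and the C19MC sum one of 1.69. Of the seed relatives outside chromosome 19, miR-17-5p stood at 526.6 and 536.7 CPM in HCT15 and 4042 and 1755 CPM in HT29.

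Rows with more than 1 locus, 14 of the 56 with a sequence, include miR-516a-5p, miR-1283, miR-512-3p, miR-516b-5p and miR-515-5p, so the locus that gave their reads is not known. MIR512-1 and MIR512-2 are the first loci, and MIR516A1, MIR1283-2 and MIR516A2 are among the last 4, which end with MIR519A2. MIR515-1, MIR515-2 and MIR1283-1 lie within the first 21.8 kb. From MIR520A to MIR520G, at 24.2 to 55.5 kb from the first hairpin, no row placed at a locus exceeded 1.73 CPM in either HCT15 library. MIR516B2 and MIR516B1 follow at 58.8 and 70.2 kb.

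**Figure D5:**
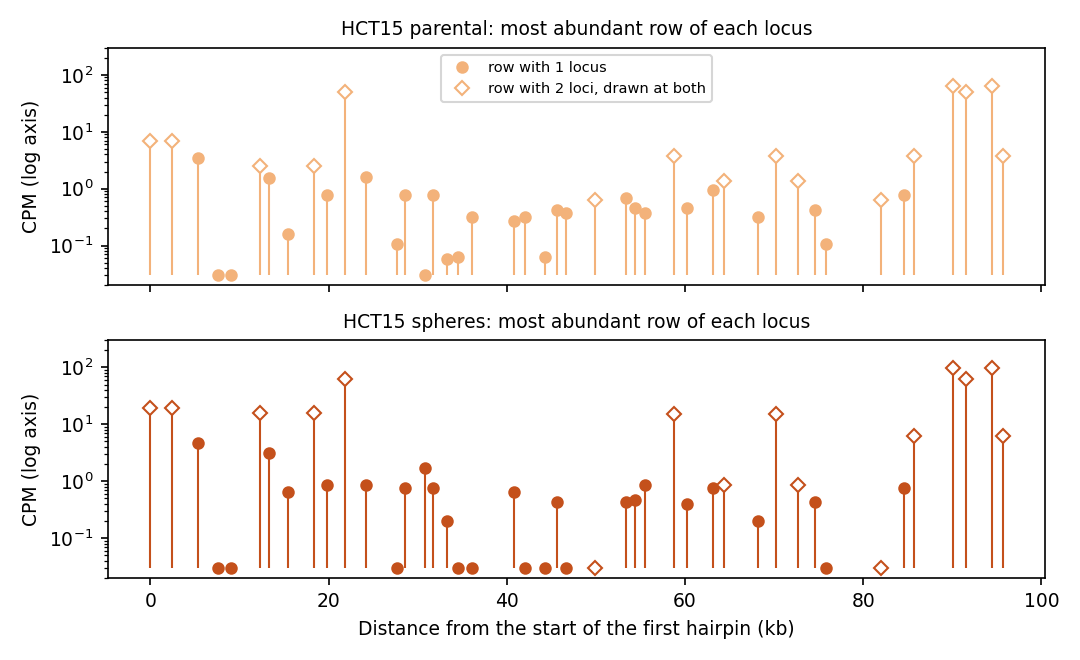
Level in CPM, on a log axis, of the most abundant row of each of the 44 C19MC loci in HCT15 parental cells (top) and spheres (bottom), against distance in kb from the start of the first hairpin, with a value of 0 at the bottom. Open diamonds are rows with 2 loci, drawn at both, and miR-518f-3p, miR-522-3p and miR-527 are not drawn. The rows above 10 CPM are all diamonds.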

How the data were processed

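Per the labels' protocols, the TruSeq Small RNA kit was used on total RNA. Per the file headers, the authors deposited raw counts for HT29 and RPKM for HCT15, under names of miRBase R19. The submitters' processing notes name hg19. No source used here names the aligner or says how reads matching several miRNAs were treated. The steps between low HCT15 values scaled with mature length L as L/(L + 9). Values were converted to reads with 1 read at 0.228 (parental) and 0.371 (spheres) times that factor, and with a length of 22 where RefSeq gave none. Of values under 50 reads, 69.3% of 564 and 71.9% of 256 were then whole within 0.02 reads, against 45.2% and 40.9% without the length term. The length term was chosen to raise this share, and the commonest low value is whole by construction. Evenly spread values would give 4%, which is no chance level for a fitted scale. In spheres the commonest low value was taken as 2 reads. Taken as 4 reads it made 72.3% of 224 values whole, so the choice is not settled. It sets the HCT15 sphere reads and intervals, the CPM that a count of 0 allows there, and which rows reach a minimum in reads. Through the prior count it also enters the HCT15 log2 ratios. The CPM of a row does not depend on it. Names without an arm were matched to RefSeq by miRBase usage. Positions are from RefSeq and GENCODE 29 (GRCh38), and none was moved from hg19.

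Ratios used edgeR 4.0.16 TMM factors over the 1882 names in all 4 files, with exact conditional binomial intervals (scipy 1.17.1). Shares have Clopper-Pearson intervals. limma 3.58.1 with its variance trend was used across lines in R 4.3.3, with Benjamini-Hochberg adjustment over all miRNAs tested at 0.05. The plan named edgeR only if all files held counts, so it was an alternative, as were DESeq2 1.42.0, limma-voom, other scalings, prior counts, minimums and pseudocounts. Members named with values in all libraries were those at 10 CPM or more in any library, and ratios were given for those with 10 reads over a line. The members and lists were chosen with earlier results of these data known. Reads carry no molecular identifiers.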

Additional observations from a re-analysis of the deposited data

How the results depend on the processing

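The direction of the summed ratio was the same in both lines under each alternative run. In HCT15 its size moved beyond its counting interval with the scaling: the log2 ratio was 0.58 with total reads, 0.70 with totals without the 10 most abundant miRNAs, 1.15 with DESeq2 size factors and 1.16 with the upper quartile. Against TMM, these scalings move the log2 ratios of all miRNAs alike, total reads by -0.55 in HT29 and -0.35 in HCT15. In HT29 it was 0.92 without miR-516a-5p and miR-1283, an alternative chosen after seeing the data, and 1.48 with each identical sequence counted once. The number of HCT15 members at least 2-fold higher was 2 with DESeq2 size factors, 2 with the upper quartile and 0 with a minimum of 50 CPM. At 1 CPM or more, 0, 2, 11 and 10 rows were detected in HT29 parental cells, HT29 spheres, HCT15 parental cells and HCT15 spheres. Against totals without the 10 most abundant miRNAs, the summed levels in that order were 5.32, 17.03, 435 and 708 CPM. No member was called across lines by limma with total reads, DESeq2 size factors, other pseudocounts, no filter or no line block, nor by edgeR, DESeq2 or limma-voom. No paired analysis by replicate number was possible because the labels carry none. The line block of the limma test pairs the cultures of a line. In HT29 parental cells 9 of the 10 rows above 0 held under 3 reads, which limits the precision of single rows there.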

Other observations

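The 2 pairs of files treated reads of identical miRNAs differently. Among C19MC rows with a RefSeq sequence, the 4 groups with identical mature sequences hold 13 rows. miR-518f-3p, miR-522-3p and miR-527 had no sequence to compare and were each counted on their own. In HT29 the rows of each group held equal whole counts, and 2 groups had any reads there: miR-516a-3p and miR-516b-3p each held 1 read in spheres, and miR-518e-5p, miR-519a-5p, miR-519b-5p, miR-519c-5p, miR-522-5p and miR-523-5p, all with the sequence below, each held 2 reads in spheres, which adds 12 to the sum.
shared sequence: cUCUAGAGggaagcgcuuucug
In HCT15 parental cells 30 of the 47 rows above 0 did not hold a whole number of reads. There miR-526a held 1.43 reads, and miR-518d-5p and miR-520c-5p, with the same sequence, held 0.715 each. The 10 rows of the UCUAGAG seed, none of them whole alone, summed to 12.0 reads in HCT15 spheres, on a read scale that is not settled. In HCT15 parental cells the same rows summed to 16.3 reads, which is not a whole number. The shared sequence was chosen after the values were seen.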
